A study of Mus musculus with 24 samples.

Results

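The genes described here are 10 members of the antioxidant programme that the transcription factor Nrf2 is known to drive, namely Nfe2l2, Gclc, Gclm, Gsr, Nqo1, Txnrd1, Srxn1, Slc7a11, Prdx1 and Akr1b8. They were taken by gene symbol from both deposited count tables, which share 49022 genes, and all 10 were found. The libraries are poly(A) RNA of macrophages sorted from mouse lung, 24 in all, in 8 groups of 3. The interstitial gate (CD11b+ SiglecF-, called IMs here) gave EGFP+ cells at day 14 after bleomycin, EGFP+ cells at day 7 after bleomycin and EGFP- cells at day 7 after bleomycin, all from Spp1-EGFP knock-in reporter mice. The same gate in wild-type C57BL/6J mice gave cells at day 7 after bleomycin and at day 7 after PBS, with no sort by EGFP. The alveolar gate (CD11b- SiglecF+, called AMs here) gave EGFP+ reporter cells at day 7 after PBS, at day 14 after bleomycin and at day 30 after bleomycin. Bleomycin, a drug that breaks DNA and scars the lung, was put into the trachea at 3 µg per g body weight. Age, sex and any pooling of animals are not given in the sources used here, and nothing says that libraries of a group came from separate mice, so p-values measure the spread between these libraries, which may be technical. In reporter mice EGFP was knocked in as a reporter of Spp1, the osteopontin gene.

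Nrf2, the product of Nfe2l2, is held by Keap1 and degraded until oxidants or electrophiles block Keap1. It then enters the nucleus, pairs with a small Maf protein and binds the antioxidant response element, a short DNA motif near its target genes. The targets make glutathione, recycle thioredoxin and detoxify quinones and aldehydes. Macrophages produce oxidants themselves, and those of the lung also meet inhaled oxygen and the debris of injured tissue.

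Total counts ran from 13450053 to 24580620 per library, and every member passed the filter on low counts in each comparison. Levels are given as CPM, the count of a gene scaled to a fixed total count per library. Spp1 was at 4103 ± 597 CPM in EGFP+ and 518 ± 59.5 CPM in EGFP- IMs at day 7 (SD, n = 3 each). The EGFP label did not rank all groups by Spp1, since EGFP+ PBS AMs had 191 to 209.6 CPM, less than EGFP- day 7 IMs, and unsorted wild-type IMs after bleomycin had 3169 to 3711 CPM. The EGFP+ groups of days 14 and 30 had 3704 to 7616 CPM. The alveolar macrophage marker list (10 genes) summed to 15124 to 25494 CPM in AM libraries and 656 to 3198 CPM in IM libraries. The interstitial list did not separate the gates, at 3770 to 13068 CPM in IM libraries and 2786 to 5672 CPM in AM libraries. The genes of the sort markers did. Itgam, the CD11b gene, had 151 to 406 CPM in IM and 5.65 to 30.9 CPM in AM libraries. Siglecf had 2.43 to 25.7 CPM in IM and 108 to 428 CPM in AM libraries. Markers of other cells were present in the IM gate: the neutrophil list (10 genes) summed to 7447 to 8879 CPM in PBS-treated wild-type IMs and the lung epithelial list (12 genes) to 4539 to 6737 CPM. The EGFP+ day 14 IM libraries differed most among themselves, and replicate 1 stood farthest from replicate 3. The macrophage list (7 genes) ranged over these 3 libraries from 15766 to 49892 CPM. In these bulk samples, fewer cells of a type and less RNA per cell cannot be told apart.

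Gene positions below follow the deposited tables (GRCm38). Nfe2l2 (ENSMUSG00000015839) lies at chr2:75675513-75704641 on the minus strand and Srxn1 (ENSMUSG00000032802) at chr2:152105516-152111376 on the plus strand. Slc7a11 (ENSMUSG00000027737) lies at chr3:49892526-50443614 on the minus strand and Gclm (ENSMUSG00000028124) at chr3:122245557-122270732 on the plus strand. Prdx1 (ENSMUSG00000028691) is at chr4:116685544-116700822, Akr1b8 (ENSMUSG00000029762) at chr6:34354119-34368463 and Gsr (ENSMUSG00000031584) at chr8:33652523-33698163, all on the plus strand. Nqo1 (ENSMUSG00000003849) is at chr8:107388225-107403206 on the minus strand, Gclc (ENSMUSG00000032350) at chr9:77754535-77794485 on the plus strand and Txnrd1 (ENSMUSG00000020250) at chr10:82859206-82897724 on the plus strand. Txnrd1 is the member whose model differs between tables: it starts earlier in the table of the day 14 and day 30 libraries and there also overlaps 2 predicted genes. Slc7a11 overlaps 5 predicted genes and Gclm 2 in both tables. Txnrd1 overlaps Eid3, Nfe2l2 overlaps Gm24996 and Gsr overlaps Gm24727 in both tables, each on the same strand. Strand use in counting is not stated, so reads in all these overlaps are uncertain. Akr1b8 has close relatives (Akr1b3, Akr1b7 and Akr1b10) that could share reads with it.

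The promoters below are shown because Nrf2 is known to act through a DNA motif. They are those with that motif, and that of Slc7a11. RefSeq (GRCm38.p6) windows from 250 bases before to 50 after the start site were held for 8 of the 10 members, in 10 windows, 3 of them for Txnrd1. The antioxidant response element core was searched as TGACNNNGC and the AP-1 type element as TGANTCA, on both strands. The core was in 5 of the 10 windows, those of Nfe2l2, Srxn1, Gclm, Prdx1 and 1 of Txnrd1, against 12.4% of all 32851 windows. The AP-1 type element was in 2 of the 10 windows, those of Srxn1 and Prdx1, against 7.81% of all windows. In Prdx1 the core overlaps an AP-1 type element. Windows are written 5′ to 3′ along the gene, with the core in capitals. The core reads TGACTCCGC on the strand of Nfe2l2, 240 bases before its start. It lies on the other strand in Srxn1 (TGACCTAGC, 29 bases after the start), Gclm (TGACGGTGC, 134 before), Prdx1 (TGACTCAGC, 133 before) and Txnrd1 (TGACAAAGC, 92 before), so that its reverse complement is in capitals there. The Slc7a11 window, of the member with the largest difference between reporter EGFP- and wild-type IMs, holds neither motif, which says only that these letters are not in this window.
Nfe2l2 promoter, chr2:75704614-75704913, minus strand, GRCm38.p6: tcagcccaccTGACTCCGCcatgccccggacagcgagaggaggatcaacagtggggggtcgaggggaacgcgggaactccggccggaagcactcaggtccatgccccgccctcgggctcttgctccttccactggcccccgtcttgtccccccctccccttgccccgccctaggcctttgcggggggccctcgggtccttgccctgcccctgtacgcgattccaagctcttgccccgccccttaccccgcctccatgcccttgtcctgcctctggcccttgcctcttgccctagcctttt
Srxn1 promoter, chr2:152105274-152105573, plus strand, GRCm38.p6: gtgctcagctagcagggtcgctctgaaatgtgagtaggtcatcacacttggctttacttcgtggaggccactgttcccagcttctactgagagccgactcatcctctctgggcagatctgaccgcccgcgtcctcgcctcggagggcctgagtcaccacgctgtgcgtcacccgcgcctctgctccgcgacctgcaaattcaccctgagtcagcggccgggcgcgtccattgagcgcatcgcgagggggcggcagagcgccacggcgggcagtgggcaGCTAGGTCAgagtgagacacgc
Gclm promoter, chr3:122245307-122245606, plus strand, GRCm38.p6: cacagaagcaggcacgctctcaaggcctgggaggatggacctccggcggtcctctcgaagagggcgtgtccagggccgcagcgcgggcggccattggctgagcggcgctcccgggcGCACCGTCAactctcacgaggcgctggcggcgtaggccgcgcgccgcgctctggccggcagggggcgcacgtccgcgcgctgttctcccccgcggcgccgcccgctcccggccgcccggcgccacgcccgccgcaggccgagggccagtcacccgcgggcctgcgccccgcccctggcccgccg
Prdx1 promoter, chr4:116685349-116685648, plus strand, GRCm38.p6: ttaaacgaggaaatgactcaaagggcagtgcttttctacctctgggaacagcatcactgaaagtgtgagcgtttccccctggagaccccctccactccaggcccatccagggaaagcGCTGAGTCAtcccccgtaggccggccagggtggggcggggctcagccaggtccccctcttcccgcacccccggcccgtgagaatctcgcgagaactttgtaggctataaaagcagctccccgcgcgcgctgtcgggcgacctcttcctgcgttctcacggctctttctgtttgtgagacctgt
Txnrd1 promoter, chr10:82858956-82859255, plus strand, GRCm38.p6: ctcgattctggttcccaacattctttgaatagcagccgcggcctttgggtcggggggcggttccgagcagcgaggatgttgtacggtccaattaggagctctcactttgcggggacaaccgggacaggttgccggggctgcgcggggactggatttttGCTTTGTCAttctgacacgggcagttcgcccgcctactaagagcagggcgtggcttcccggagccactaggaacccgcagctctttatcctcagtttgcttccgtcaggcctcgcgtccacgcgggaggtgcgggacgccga
Slc7a11 promoter, chr3:50443564-50443863, minus strand, GRCm38.p6: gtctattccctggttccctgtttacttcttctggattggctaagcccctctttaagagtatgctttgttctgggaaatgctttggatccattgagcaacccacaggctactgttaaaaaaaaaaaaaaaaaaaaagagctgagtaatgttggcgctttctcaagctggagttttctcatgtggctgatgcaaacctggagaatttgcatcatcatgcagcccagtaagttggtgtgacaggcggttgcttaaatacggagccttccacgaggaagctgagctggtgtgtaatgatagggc

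Cystine uptake and glutathione synthesis form the opening step of the programme. Slc7a11, the cystine importer xCT, had 142, 174 and 144 CPM in EGFP+ IMs at day 14, 848, 687 and 765 CPM in EGFP+ IMs at day 7 and 1117, 1061 and 1119.7 CPM in EGFP- IMs at day 7. Its wild-type IM libraries had 152, 164 and 175 CPM after bleomycin and 553, 622 and 586 CPM after PBS. In EGFP+ AMs it had 55.8, 51.3 and 59.0 CPM after PBS, 146, 187 and 137 CPM at day 14 and 118, 78.4 and 83.9 CPM at day 30. All 6 day 7 reporter IM libraries were thus above every other library, and PBS AMs were the lowest group. Gclc, the catalytic subunit of glutamate-cysteine ligase, had 53.5, 55.0 and 32.0 CPM in EGFP+ IMs at day 14, 83.6, 76.0 and 74.4 CPM in EGFP+ and 98.7 to 105 CPM in EGFP- IMs at day 7. It had 43.7, 48.2 and 45.6 CPM in wild-type IMs after bleomycin and 55.7, 55.7 and 54.6 CPM after PBS. AMs held 48.4, 45.5 and 51.4 CPM of it after PBS, 36.7, 39.1 and 28.4 CPM at day 14 and 50.4, 44.7 and 48.1 CPM at day 30. The same 6 libraries were the highest, and the ranges of the PBS AMs, day 30 AMs, EGFP+ day 14 IMs and wild-type bleomycin IMs overlapped one with the next.

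Gclm, the modifier subunit of that ligase, had 65.2, 59.4 and 61.7 CPM in EGFP+ IMs at day 14, 89.9, 89.1 and 85.2 CPM in EGFP+ and 61.3, 61.7 and 60.1 CPM in EGFP- IMs at day 7. It stood at 46.9, 42.4 and 40.4 CPM in wild-type IMs after bleomycin and 26.0, 23.6 and 25.5 CPM after PBS. In AMs it stayed within 50.4 to 64.2 CPM. EGFP+ day 7 IMs were the highest group and wild-type PBS IMs the lowest, each apart from its neighbour. Gsr, the reductase that returns oxidised glutathione to its reduced form, had 123, 83.8 and 72.8 CPM in EGFP+ IMs at day 14, 258, 211 and 231 CPM in EGFP+ and 342, 379 and 379.8 CPM in EGFP- IMs at day 7. Wild-type IMs had 183, 197 and 208 CPM of Gsr after bleomycin and 502, 524 and 565 CPM after PBS. Its AM libraries had 245, 237 and 243 CPM after PBS, 377, 282 and 256 CPM at day 14 and 279.5, 283 and 271 CPM at day 30. Gsr was thus highest in wild-type PBS IMs, the group with the least Gclm, and lowest in EGFP+ day 14 IMs.

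The thioredoxin arm reduces peroxides and repairs oxidised proteins. Txnrd1, the cytosolic thioredoxin reductase, had 306, 414 and 406 CPM in EGFP+ IMs at day 14, 676, 599 and 599 CPM in EGFP+ and 778, 797 and 814 CPM in EGFP- IMs at day 7. It had 302, 332 and 334 CPM in wild-type IMs after bleomycin and 485, 470.4 and 459 CPM after PBS. In AMs it had 391, 369 and 379.8 CPM after PBS, 309.5, 427 and 369 CPM at day 14 and 294, 265 and 274 CPM at day 30. Its 3 highest groups, EGFP- day 7, EGFP+ day 7 and wild-type PBS IMs, did not overlap, and day 30 AMs were lowest. Srxn1, sulfiredoxin, which rescues over-oxidised peroxiredoxins, had 177, 273 and 234 CPM in EGFP+ IMs at day 14, 266, 241 and 247 CPM in EGFP+ and 232, 232 and 243 CPM in EGFP- IMs at day 7. Wild-type IMs had 90.1, 93.6 and 95.8 CPM of Srxn1 after bleomycin and 122, 116 and 119.5 CPM after PBS. AM libraries held 86.8 to 131 CPM. The 9 reporter IM libraries were all above the other 15 libraries. Prdx1, a peroxiredoxin that removes hydrogen peroxide, had 841, 1381 and 2242 CPM in EGFP+ IMs at day 14, 1134, 1258 and 1183 CPM in EGFP+ and 440.4, 474 and 469 CPM in EGFP- IMs at day 7. It had 567, 519 and 483 CPM in wild-type IMs after bleomycin and 217, 185 and 191 CPM after PBS. In AMs its values were 747, 707 and 763 CPM after PBS, 962, 897 and 897 CPM at day 14 and 1177, 1270.1 and 1200.1 CPM at day 30. Every EGFP+ library was above every EGFP- and wild-type library, and the 3 day 14 IM libraries spanned the ranges of their neighbours in the order. All AM libraries are EGFP+ and all EGFP- and wild-type libraries are IMs, so gate and EGFP are in part confounded in this order.

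Detoxification of quinones and aldehydes is another arm of the programme. Nqo1, a quinone reductase, had 2.86, 3.64 and 4.61 CPM in EGFP+ IMs at day 14, 5.49, 4.82 and 5.15 CPM in EGFP+ and 4.34, 3.57 and 4.88 CPM in EGFP- IMs at day 7. It had 0.786, 1.01 and 0.620 CPM in wild-type IMs after bleomycin, where the lowest library counted 10 reads, and 1.91, 2.02 and 2.05 CPM after PBS. AMs had 1.43, 2.03 and 1.21 CPM of it after PBS, 5.05, 3.20 and 5.96 CPM at day 14 and 5.46, 5.48 and 7.04 CPM at day 30. The 15 reporter libraries taken after bleomycin were above the 9 wild-type and PBS libraries. Akr1b8, an aldo-keto reductase of aldehydes, had 39.7, 24.9 and 21.7 CPM in EGFP+ IMs at day 14, 10.7, 13.8 and 15.1 CPM in EGFP+ and 2.49, 2.31 and 2.08 CPM in EGFP- IMs at day 7. It stayed at 1.18 to 2.58 CPM in the 6 wild-type IM libraries. In AMs it had 5.54, 5.29 and 5.10 CPM after PBS, 8.22, 8.18 and 6.54 CPM at day 14 and 17.2, 25.4 and 15.9 CPM at day 30. As for Prdx1, every EGFP+ library was above every EGFP- and wild-type library, which are all IMs. Nfe2l2, the regulator, had 328, 491 and 511 CPM in EGFP+ IMs at day 14, 520.5, 504 and 490.1 CPM in EGFP+ and 621, 633 and 630.1 CPM in EGFP- IMs at day 7. It had 596, 592 and 561 CPM in wild-type IMs after bleomycin and 461, 457 and 470.5 CPM after PBS. In AMs it had 340.4, 328 and 355 CPM after PBS, 355, 411 and 415 CPM at day 14 and 206, 211 and 223 CPM at day 30. Its groups spanned less than those of Slc7a11, Akr1b8, Nqo1 and Prdx1, from EGFP- day 7 IMs at the top to day 30 AMs at the bottom.

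**Figure D1:**
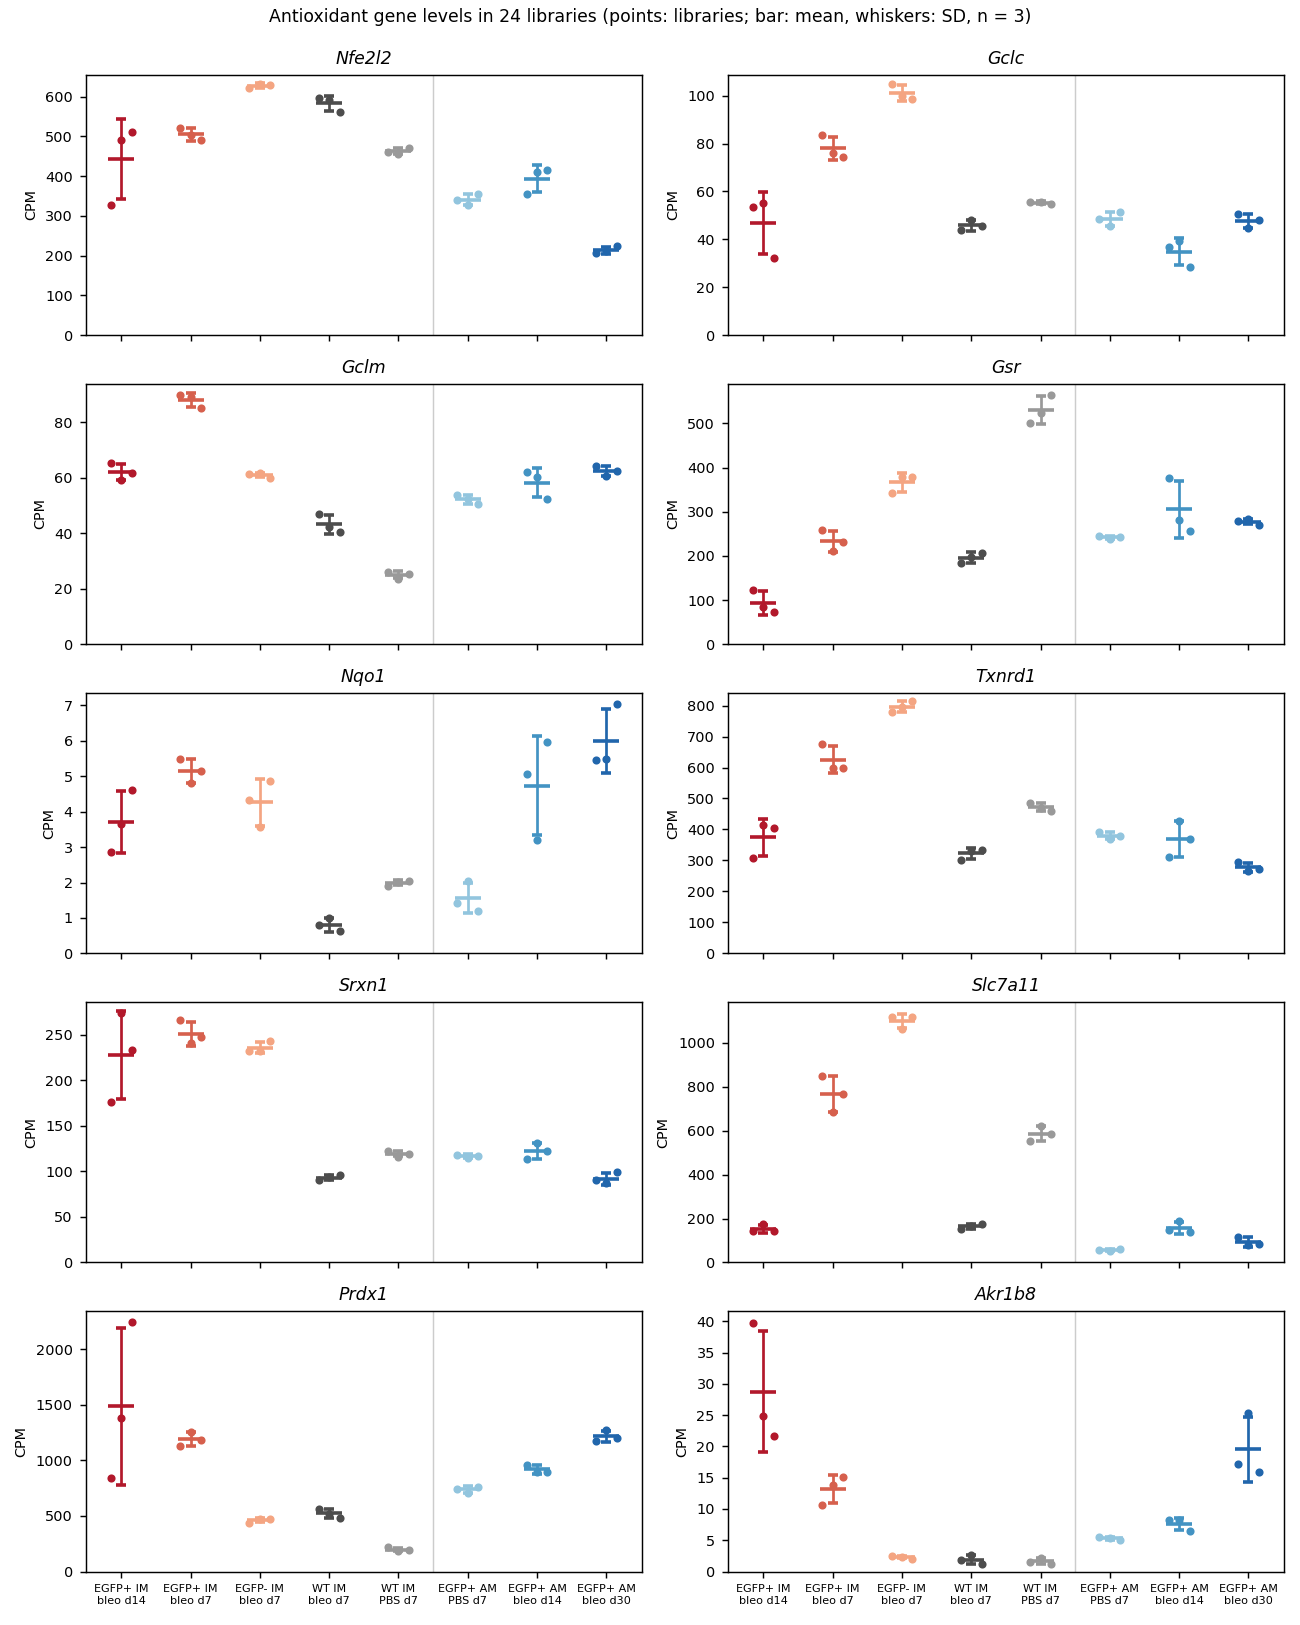
Level of each gene in CPM of the total count (linear y axis from 0) in the 8 groups along the x axis (interstitial gate left of the grey line, alveolar gate right of it). Points are libraries, bars the mean and whiskers the SD (n = 3). Slc7a11 peaks in the 6 day 7 reporter IM libraries (687 to 1120 CPM), and Akr1b8 is at 5.10 CPM or more in each EGFP+ library and at 2.58 CPM or less in each other one. All AM libraries are EGFP+.

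Levels per kilobase of exon (GENCODE M21 exon union) allow a rough comparison between genes. The union spans the exons of all annotated transcripts, and which of these the cells used was not examined. On this scale Prdx1 had group means of 64.9 to 489 CPM per kb and Nfe2l2 56.1 to 165 CPM per kb. Gsr lay between 33.9 and 193 CPM per kb and Txnrd1 between 39.2 and 112 CPM per kb. Slc7a11 reached 78.9 CPM per kb and had 3.98 CPM per kb in PBS AMs. Gclm ran from 3.98 to 14.0 CPM per kb and Gclc from 9.23 to 26.9 CPM per kb, so on this scale the mean of the catalytic subunit was above that of the modifier subunit in each group except day 14 AMs, at 9.23 against 9.27 CPM per kb. Nqo1 ran from 0.518 to 3.86 CPM per kb and Akr1b8 from 1.11 to 19.2 CPM per kb.

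Wild-type IMs at day 7 show the effect of bleomycin against PBS without a sort by EGFP. After bleomycin Slc7a11 was 3.70-fold lower (log2 fold change -1.89 ± 0.06 SE, adjusted p = 6.23e-18). Gsr was 2.80-fold lower (-1.48 ± 0.06, adjusted p = 1.95e-16) and Nqo1 2.53-fold lower (-1.34 ± 0.35, adjusted p = 0.00188). Txnrd1, Srxn1 and Gclc fell by smaller amounts, with log2 fold changes of -0.59, -0.40 and -0.32. Prdx1 rose 2.57-fold (1.36 ± 0.07, adjusted p = 1.51e-11), Gclm 1.67-fold and Nfe2l2 1.22-fold. Akr1b8 was not called (log2 fold change 0.14, -0.55 to 0.82 at 2 SE either side, adjusted p = 0.737). The 9 called members were apart between the groups in all libraries. How many of all genes were so was not counted, so this is not read as a trait of the set. The calls were 3 higher and 6 lower of 10. Of the 15496 genes tested, 35.6% were called higher and 34.5% lower, so the share called is not particular to the set. The median log2 fold change was -0.36 over the members and 0.00 over all genes tested. The Nfe2l2 call was lost with all 24 libraries in one fit, and its adjusted p ran from 4.16e-11 to 0.0632 over the alternatives.

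Genes around the members moved both ways in wild-type IMs, as did all genes tested, of which 35.6% were called higher and 34.5% lower. Of 23 other Nrf2-type targets tested, 13 rose and 7 fell after bleomycin. Akr1a1, an aldehyde reductase, was at 618 ± 28.7 CPM against 211 ± 10.4 CPM (SD, n = 3 each), whereas Osgin1, an oxidative stress response gene, was at 18.7 ± 3.35 CPM against 172 ± 6.78 CPM. Of 10 genes that supply NADPH, the electron source of both reductases, 5 rose and 2 fell, and Idh1, cytosolic isocitrate dehydrogenase, was 3.71-fold higher. Of 23 other glutathione genes, 8 rose and 7 fell, with glutathione synthetase Gss 2.63-fold lower. Of 15 other thioredoxin and peroxiredoxin genes, 8 rose and 5 fell, with Prdx4 2.53-fold higher. Among 14 regulators and partners of Nrf2, 5 rose and 8 fell, and the small Maf gene Mafk was at 145 ± 1.12 CPM against 309 ± 8.38 CPM. Of 15 genes of the amino acid stress response, whose factor Atf4 also drives Slc7a11, 6 rose and 7 fell, and Atf4 was at 315 ± 8.36 CPM against 586 ± 17.9 CPM. Neutrophil and epithelial markers moved with these groups. The neutrophil sum was 1594 to 1647 CPM after bleomycin and 7447 to 8879 CPM after PBS, and the epithelial sum 229 to 257 CPM and 4539 to 6737 CPM. Their part in the changes was not tested.

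In EGFP+ AMs the comparison of bleomycin at day 14 with PBS at day 7 gave mostly higher members. Nqo1 was 3.44-fold higher (1.78 ± 0.28, adjusted p = 4.51e-05) and Slc7a11 3.21-fold higher (1.68 ± 0.14, adjusted p = 5.1e-07). Akr1b8 was 1.63-fold, Gsr 1.44-fold and Prdx1 1.41-fold higher, and Nfe2l2, Gclm and Srxn1 were higher by log2 fold changes of 0.39, 0.34 and 0.25. Gclc alone fell, by 0.30 on the log2 scale, and Txnrd1 was not called (0.14, -0.05 to 0.32 at 2 SE either side). That made 8 higher and 1 lower of 10, where 27.3% of 14706 genes were called higher and 27.6% lower. The members' median log2 fold change was 0.45, against -0.01 over all genes. The libraries of the groups overlapped for Gclm and Srxn1. The Gclc call was lost without day 14 replicate 3 or without PBS replicate 1 or 3 (adjusted p 0.00547 to 0.122 over the alternatives), Txnrd1 was called higher without day 14 replicate 1, and Srxn1 and Prdx1 were not called with all 24 libraries in one fit.

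At day 30 after bleomycin, set against the same PBS AMs, Nqo1 was 4.10-fold higher (2.04 ± 0.27, adjusted p = 1.07e-05) and Akr1b8 3.97-fold higher (1.99 ± 0.17, adjusted p = 6.82e-08). Slc7a11 was 1.83-fold, Prdx1 1.78-fold, Gclm 1.29-fold and Gsr 1.24-fold higher. Nfe2l2 itself was 1.48-fold lower (adjusted p = 1.57e-05), and Txnrd1 and Srxn1 were lower by log2 fold changes of -0.34 and -0.23. Thus 6 were higher and 3 lower of 10, where 24.8% of genes were called higher and 23.1% lower. The median was 0.34 over the members and 0.02 over all genes. The Gsr call was lost without any one of 5 of the 6 libraries (adjusted p 2.12e-05 to 0.0717 over the alternatives) and the Srxn1 call without any one of 4 or with all 24 libraries in one fit (0.00197 to 0.102).

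Both AM comparisons use the same PBS libraries and span the 2 deposited tables, so table, day and treatment cannot be told apart. Txnrd1 has another model in the table of the day 14 and day 30 libraries. Over all genes tested, 27.3% were called higher and 27.6% lower at day 14, and 24.8% and 23.1% at day 30. Of 21 other Nrf2-type targets, 13 rose and 1 fell at day 14 and 15 rose and 1 fell at day 30, each against PBS. Ptgr1, a reductase of reactive lipids, was at 69.1 ± 7.71 CPM at day 14 and 57.4 ± 1.36 CPM at day 30, against 22.7 ± 0.746 CPM after PBS. Of 15 other thioredoxin and peroxiredoxin genes, 12 rose and 1 fell at day 14 and 11 rose and 0 fell at day 30. Of 20 other glutathione genes, 11 rose and 3 fell at day 14 and 9 rose and 2 fell at day 30, with the plasma glutathione peroxidase gene Gpx3 at 35.8 ± 8.07 CPM and 23.0 ± 2.58 CPM against 3.15 ± 1.03 CPM. Of 10 NADPH supply genes, 8 rose and 2 fell at day 14 and 7 rose and 1 fell at day 30. Nnt, counted there as lower, had 1 to 9 reads in each library of the second table and 123 to 844 in each of the first. The second table lists another Nnt model over the same bases, so this gene is not read further. Of 14 amino acid stress genes, 1 was higher and 9 lower at day 14 and 2 were higher and 6 lower at day 30. This count holds Ddit3, which has another model in the second table only. At day 14 Phgdh, the entry enzyme of serine synthesis, was at 58.1 ± 10.5 CPM against 212 ± 5.67 CPM. In AMs the neutrophil sum was 133 to 207 CPM after PBS, 91.8 to 111 CPM at day 14 and 524 to 611 CPM at day 30, and Ly6g and Camp were at 0 in each day 14 AM library. The B cell sum (8 genes) was 1555 to 1797 CPM after PBS, 46.8 to 60.1 CPM at day 14 and 991 to 1344 CPM at day 30. The epithelial sum was 400.2 to 409 CPM, 121 to 133 CPM and 171 to 222 CPM at the same stages, and the fibroblast sum (8 genes) 8.56 to 12.2 CPM, 3.87 to 7.48 CPM and 76.0 to 81.8 CPM. Of 12 mitochondrial transcripts tested, 11 were higher and 0 lower at day 14 and 4 higher and 0 lower at day 30, each against PBS. The part of these cells and transcripts in the changes was not tested.

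**Figure D2:**
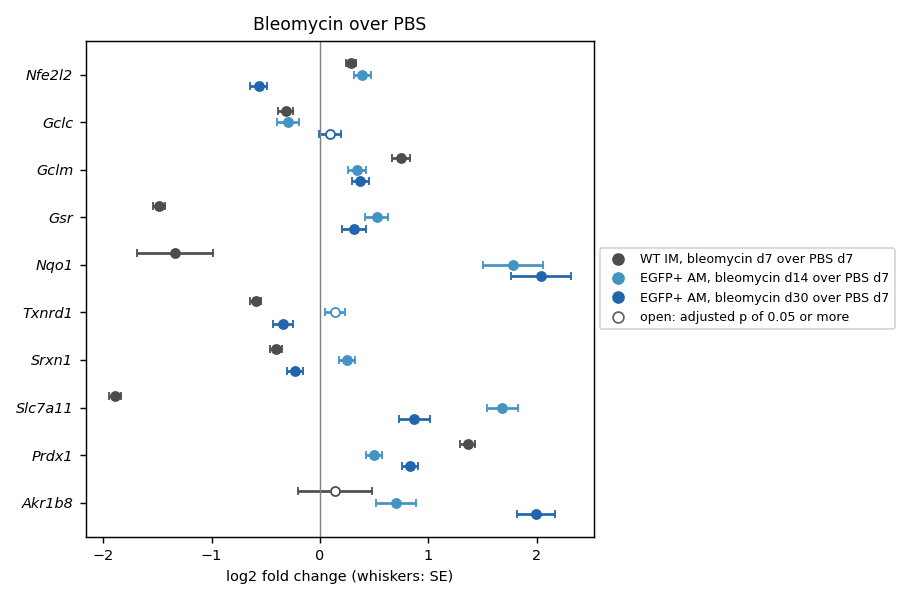
Log2 fold change (x axis, whiskers 1 SE) of bleomycin over PBS for each gene (y axis) in wild-type IMs at day 7 and in EGFP+ AMs at days 14 and 30, all from edgeR. Open points have an adjusted p of 0.05 or more. Slc7a11, Gsr and Nqo1 lie left of 0 in IMs (-1.89, -1.48 and -1.34) and right of 0 in AMs at both days.

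The effect of bleomycin differed between wild-type IMs at day 7 and EGFP+ AMs at day 14 for most members, in a comparison of the effects themselves that was chosen after results had been seen. The log2 effect in IMs minus that in AMs was -3.53 ± 0.13 SE for Slc7a11 (adjusted p = 3.85e-14), -3.08 ± 0.45 for Nqo1 (adjusted p = 1.09e-05) and -1.97 ± 0.15 for Gsr (adjusted p = 5.4e-09). Prdx1 had the greater rise in IMs (0.90 ± 0.11, adjusted p = 1.67e-06). In all, 2 members were higher and 5 lower of 10, where 28% of 16177 genes were called higher and 17.6% lower, with a median of 0.16 over all genes. Gate, genotype, day and deposited table differ together here and cannot be told apart.

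From day 14 to day 30, within 1 deposited table, the members split. Day 30 AMs had Akr1b8 2.44-fold higher than day 14 AMs (adjusted p = 2.44e-05), with Gclc and Prdx1 higher by log2 fold changes of 0.39 and 0.33. Nfe2l2 was 1.94-fold lower (-0.96 ± 0.08, adjusted p = 1.06e-07), Slc7a11 1.76-fold lower, and Txnrd1 and Srxn1 lower by -0.48 and -0.48 on the log2 scale. These are 3 higher and 4 lower of 10, where 19.6% of genes were called higher and 18.7% lower. Gclm was not called (0.03, -0.13 to 0.19 at 2 SE either side), nor were Gsr and Nqo1. Gsr was called lower without day 14 replicate 3 or without the low-count filter, and Prdx1 was not called with all 24 libraries in one fit. Of 21 other Nrf2-type targets, 7 were higher and 4 lower at day 30, and of 14 amino acid stress genes 7 were higher and 2 lower. Osgin1 was at 19.5 ± 4.90 CPM at day 30 against 3.92 ± 0.485 CPM at day 14. Markers of other cells were higher at day 30, in 8 of 9 neutrophil, 8 of 8 B cell, 7 of 7 fibroblast, 7 of 8 T and NK cell and 3 of 3 red cell genes tested. Of 12 mitochondrial transcripts, 0 were higher and 10 lower at day 30. Their part in the differences was not tested.

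EGFP+ and EGFP- IMs of day 7 were compared to see how cells with the reporter differ within one gate and treatment. EGFP+ cells had Akr1b8 5.55-fold higher (2.47 ± 0.22, adjusted p = 4.21e-05), Prdx1 2.49-fold higher (1.32 ± 0.32, adjusted p = 0.0126) and Gclm 1.40-fold higher (adjusted p = 0.000756). They had Gsr 1.63-fold lower (adjusted p = 0.00307), Slc7a11 1.48-fold lower (adjusted p = 0.00475) and Gclc 1.34-fold lower (adjusted p = 0.0439). So the subunits of glutamate-cysteine ligase differed in opposite directions. Here 3 were higher and 3 lower of 10, where 17.2% of 14967 genes were called higher and 17.6% lower (5206 in all, or 3280 without EGFP+ replicate 2). Srxn1 was not called (0.04, -0.27 to 0.36 at 2 SE either side), nor was Nqo1. Txnrd1 and Nfe2l2 were lower in each EGFP+ library but not called (adjusted p = 0.0503 and 0.118). The estimate of the spread there included the day 14 IM libraries. With only the 2 groups or with all 24 libraries in the fit both were called lower. Txnrd1 was called lower too with DESeq2, with its size factors within edgeR or without the low-count filter. Over the alternatives the adjusted p ran from 0.000373 to 0.16 for Txnrd1 and from 0.000348 to 0.259 for Nfe2l2. The Gclc call was lost without any one of the 6 libraries (adjusted p 0.000104 to 0.141 over the alternatives), and the Prdx1 call without the low-count filter (1.65e-10 to 0.053).

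Around the members, 14 of 21 other Nrf2-type targets were higher and 1 was lower in EGFP+ IMs, where 17.2% of all genes were called higher and 17.6% lower. Ptgr1 was at 74.7 ± 5.71 CPM against 18.8 ± 1.15 CPM and the haem transporter gene Slc48a1 at 163 ± 2.73 CPM against 64.6 ± 5.47 CPM, while Osgin1 was at 61.5 ± 13.6 CPM against 146 ± 14.9 CPM. Of 10 NADPH supply genes, 6 were higher and 0 lower, among them Idh1 (2.96-fold) and the pentose phosphate genes G6pdx (1.38-fold) and Pgd (1.38-fold). Of 20 other glutathione genes, 11 were higher and 2 lower, and of 14 amino acid stress genes 2 were higher and 4 lower. The neutrophil sum was 2013 to 2758 CPM in EGFP+ and 4592 to 6075 CPM in EGFP- IMs, and the macrophage sum 10923 to 14800.4 CPM and 5371 to 5395 CPM. The part of these cells in the differences was not tested.

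Both EGFP gates at day 7 were then set against wild-type IMs of the same day, treatment and deposited table, a comparison chosen after the levels had been seen. EGFP+ reporter IMs had Slc7a11 5.06-fold higher than wild-type IMs (2.34 ± 0.07, adjusted p = 1.89e-15), and EGFP- reporter IMs 7.39-fold higher (2.89 ± 0.07, adjusted p = 9.54e-17). For Nqo1 the folds were 6.81 in EGFP+ and 5.76 in EGFP- cells, for Srxn1 2.91 and 2.79, and for Txnrd1 2.09 and 2.72. Gclm was 2.20-fold and 1.55-fold higher, Gclc 1.84-fold and 2.43-fold, and Gsr 1.29-fold and 2.07-fold. In each of these 7 genes all 6 reporter libraries were above all 3 wild-type libraries, as was so for 9.67% of the 15144 genes tested. Prdx1 and Akr1b8, which differed between the EGFP gates as given above, were higher in EGFP+ reporter than in wild-type IMs (2.46-fold and 7.49-fold). In EGFP- cells Prdx1 was not called (-0.04, -0.17 to 0.09 at 2 SE either side), nor was Akr1b8 (0.41, -0.10 to 0.92), which was called higher without wild-type replicate 2. Nfe2l2 was higher in EGFP- cells (0.24 ± 0.05, adjusted p = 0.000566), a call lost with all 24 libraries in one fit, and not called in EGFP+ cells (-0.10).

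Counted over the set, 9 of 10 were higher and 0 lower in EGFP+ reporter IMs, where 18.6% of genes were called higher and 16.2% lower, and 8 of 10 higher and 0 lower in EGFP- reporter IMs, where 27.8% were higher and 31.7% lower. The median log2 difference of the members was 1.22 in EGFP+ and 1.16 in EGFP- cells, against -0.02 and -0.05 over all genes, and the median absolute difference over all genes was 0.24 and 0.42. Both comparisons share the wild-type libraries. Genotype, and whatever else went with the reporter mice, cannot be told apart from the difference, and the wild-type cells were not sorted by EGFP. Spp1 itself was 1.29-fold higher in EGFP+ reporter IMs than in wild-type IMs. The dissociation stress list (13 genes), one sign of handling, summed to 8021 to 8413 CPM in EGFP+, 9605 to 9764 CPM in EGFP- and 12144 to 12379 CPM in wild-type bleomycin IMs, so it was lower in the reporter libraries. The neutrophil sum was 2013 to 2758 CPM, 4592 to 6075 CPM and 1594 to 1647 CPM in the same order, and the macrophage sum 10923 to 14800.4 CPM, 5371 to 5395 CPM and 15104 to 16426 CPM. Their part was not tested.

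Other lists did not all follow. Of 21 other Nrf2-type targets, 14 were higher and 0 lower in EGFP+ reporter IMs than in wild-type IMs, but 5 were higher and 10 lower in EGFP- reporter IMs. Hmox1, haem oxygenase, was at 727 ± 67.4 CPM in EGFP+ and 561 ± 29.8 CPM in EGFP- cells, against 299.8 ± 11.1 CPM in wild-type cells. The glutathione exporter gene Abcc1 was at 171 ± 9.28 CPM and 143 ± 5.89 CPM, against 92.2 ± 4.08 CPM. Among 14 Nrf2 regulators and partners, 7 were higher and 1 lower in the EGFP+ gate and 8 higher and 2 lower in EGFP- cells, including Sqstm1, which encodes the Keap1 binding protein p62, at 1269.9 ± 52.3 CPM and 1579.9 ± 59.9 CPM against 828 ± 15.7 CPM. Of 10 NADPH supply genes, 5 were higher and 1 lower in the EGFP+ gate, and 2 higher and 6 lower in EGFP- cells. Of 9 NADPH oxidase and nitric oxide genes, 7 were higher and 0 lower in the EGFP+ gate and 6 higher and 2 lower in EGFP- cells. The inducible nitric oxide synthase gene Nos2 was at 17.5 ± 2.16 CPM and 33.9 ± 3.10 CPM, against 4.28 ± 0.0768 CPM. Of 14 amino acid stress genes, 7 were higher and 2 lower in the EGFP+ gate and 9 higher and 3 lower in EGFP- cells, with asparagine synthetase Asns at 6.73 ± 0.641 CPM and 8.48 ± 0.857 CPM, against 3.30 ± 0.655 CPM.

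**Figure D3:**
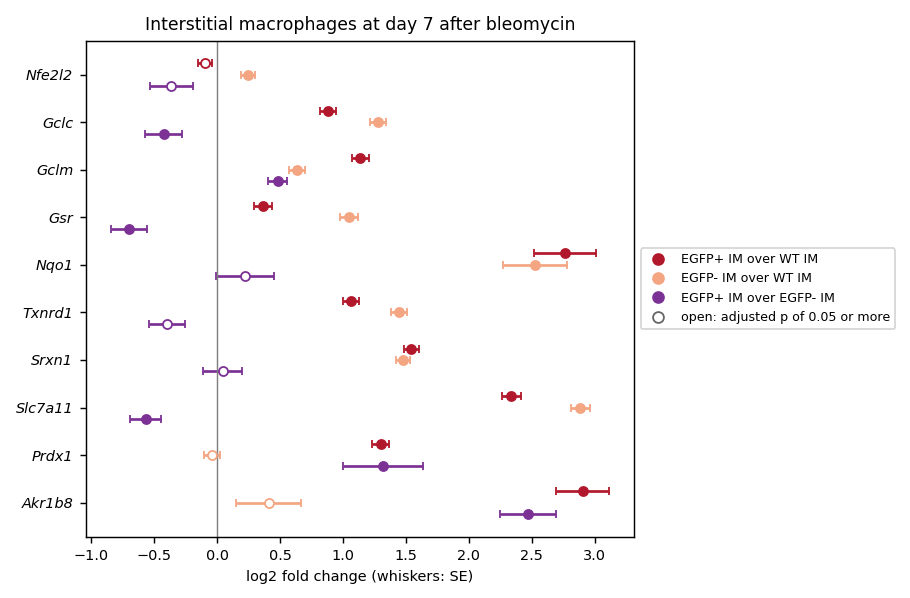
Log2 fold change (x axis, whiskers 1 SE) of each gene (y axis) in interstitial macrophages at day 7 after bleomycin, for EGFP+ over wild-type, EGFP- over wild-type and EGFP+ over EGFP- cells. Open points have an adjusted p of 0.05 or more. The 7 genes Slc7a11, Nqo1, Srxn1, Txnrd1, Gclm, Gclc and Gsr lie right of 0 against wild-type in both gates, from 0.37 for Gsr to 2.89 for Slc7a11, whereas Prdx1 and Akr1b8 were called higher for EGFP+ cells and not called for EGFP- cells.

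EGFP+ IMs at day 14 were set against those at day 7. Day 14 cells had Slc7a11 4.27-fold lower (-2.10 ± 0.13, adjusted p = 2.98e-07) and Gsr 2.17-fold lower (-1.12 ± 0.14, adjusted p = 7.16e-05). Gclc, Txnrd1 and Gclm were lower by log2 fold changes of -0.52, -0.50 and -0.28. Akr1b8 was 2.51-fold higher (adjusted p = 0.000106). So 1 was higher and 5 lower of 10, where 25.3% of genes were called higher and 26.9% lower. Without day 14 replicate 1, which stood apart, Prdx1 (log2 fold change 0.87), Srxn1 (0.27) and Nfe2l2 (0.25) were also called higher, and 9 members were called in all. Without day 7 replicate 1 the Gclc and Txnrd1 calls were lost, which left 4. The comparison spans both tables, so table and day cannot be told apart, and Txnrd1 has another model in the second table. Of 21 other Nrf2-type targets, 12 rose and 2 fell, with Akr1b3, an aldose reductase gene, at 162 ± 6.50 CPM at day 14 against 83.7 ± 7.00 CPM at day 7. Osgin1 was at 9.29 ± 0.270 CPM against 61.5 ± 13.6 CPM. The neutrophil sum was 133 to 202 CPM at day 14 and 2013 to 2758 CPM at day 7, and its part was not tested.

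At day 14 EGFP+ IMs were compared with EGFP+ AMs of the same table. Akr1b8 was 4.03-fold higher in IMs (2.01 ± 0.21, adjusted p = 7.98e-05) and Srxn1 2.04-fold higher (1.03 ± 0.19, adjusted p = 0.00296). Gsr was 3.05-fold lower in IMs (-1.61 ± 0.19, adjusted p = 0.000231). These 2 higher and 1 lower of 10 compare with 10.8% of 13460 genes called higher and 10.2% lower (2832 in all, or 1840 and 1881 without AM replicate 2 or 3). With all 24 libraries in one fit 6 members and 5906 genes were called. Slc7a11 was not called (0.09, -0.22 to 0.40 at 2 SE either side). Same-numbered libraries of these groups deviated together, and with the replicate number as a block Gclc was also called higher in IMs (log2 fold change 0.52, adjusted p = 0.00902, against 0.0705 without the block and 0.00106 to 0.26 over the alternatives). Gclc was called higher too without the low-count filter, with all 24 libraries or without IM replicate 3. Prdx1 was called higher with DESeq2, without the low-count filter, with all 24 libraries or without IM replicate 1 (adjusted p 0.000307 to 0.304 over the alternatives). Nfe2l2 was called higher without IM replicate 1 (0.52), and Gclm with all 24 libraries. Of 21 other Nrf2-type targets, 6 were higher and 1 lower in IMs. Abcc1 was at 121 ± 13.3 CPM in IMs against 77.3 ± 11.8 CPM in AMs. Of the markers of other cells, 4 of 7 neutrophil and 3 of 8 B cell genes tested were higher in IMs, and their part was not tested.

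After PBS the gates stood farther apart, but the mice differed too, since the IMs were wild-type and the AMs EGFP+ reporter cells. Wild-type IMs had Slc7a11 10.6-fold higher than reporter AMs (3.40 ± 0.07, adjusted p = 1.51e-18) and Gsr 2.19-fold higher (adjusted p = 7.76e-13). Nfe2l2, Txnrd1 and Gclc were higher by log2 fold changes of 0.44, 0.31 and 0.19. Prdx1 was 3.75-fold lower (adjusted p = 1.34e-15), Akr1b8 3.19-fold lower and Gclm 2.09-fold lower. That is 5 higher and 3 lower of 10, where 39.2% of 15828 genes were called higher and 39.7% lower. Gclc was not called without PBS AM replicate 1 or 2, without the low-count filter, or with all 24 libraries in one fit (adjusted p 0.00711 to 0.204 over the alternatives). Of 10 NADPH supply genes, 1 was higher and 9 lower in the IMs, with Idh1 at 31.2 ± 1.51 CPM against 229 ± 3.98 CPM. Of 23 other Nrf2-type targets, 6 were higher and 15 lower, among them Hmox1 at 461 ± 4.51 CPM against 1041 ± 38.9 CPM. The neutrophil sum was 7447 to 8879 CPM in the IMs and 133 to 207 CPM in the AMs, and its part was not tested.

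Across the 24 libraries the members did not move as one. Pearson's r of log2(CPM + 1) was positive in 29 of 45 pairs, with a median of 0.24, from -0.705 between Gsr and Prdx1 to 0.859 between Txnrd1 and Slc7a11. Slc7a11, Txnrd1, Gclc and Srxn1 were alike, with r of 0.811 between Gclc and Txnrd1 and 0.776 between Srxn1 and Txnrd1. Their lowest pair was Gclc and Srxn1, at 0.610. Prdx1, Akr1b8 and Gclm formed another group, at 0.837 between Prdx1 and Akr1b8 and 0.827 between Gclm and Prdx1. Their lowest pair was Gclm and Akr1b8, at 0.655. Nqo1 stood close to these, at 0.603 with Gclm, 0.596 with Akr1b8 and 0.531 with Prdx1. Gsr was most like Slc7a11, at 0.403, and Nfe2l2 most like Txnrd1, at 0.670. Of 6878 genes ranked, those closest to the mean of the members' standardised values were Prdx5 (0.879), Arrdc4 (0.848), Il1rn (0.847), Abcc1 (0.838) and F10 (0.832). These are descriptions over libraries that share group, depth and table.

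Among the 5 IM groups, Gsr kept the order of the neutrophil sum, whose group medians were 137 CPM in EGFP+ day 14, 2144 CPM in EGFP+ day 7, 5562 CPM in EGFP- day 7, 1603 CPM in wild-type bleomycin and 7770 CPM in wild-type PBS cells. In AMs the order differed, since the day 14 group had the lowest sum, with a median of 98.0 CPM, and the highest mean of Gsr, 305 ± 63.8 CPM. In IMs the dendritic cell sum (7 genes) also had nearly the order of Gsr. Only wild-type bleomycin and EGFP+ day 7 cells were exchanged, with medians of 245 and 132 CPM. The B cell sum had it with EGFP- and EGFP+ day 7 cells exchanged, at medians of 737 and 1385 CPM. The red cell sum (5 genes) had it with wild-type bleomycin and EGFP+ day 14 cells exchanged, at 0.423 and 0.638 CPM. By median, the epithelial, fibroblast and endothelial sums were also highest in wild-type PBS and lowest in EGFP+ day 14 cells. Gsr was singled out after the levels had been seen. The order of Prdx1 in IMs ran nearly the other way, with EGFP+ day 14 cells highest and wild-type PBS cells lowest. The part of neutrophils, dendritic cells or any other cells in these levels was not tested.

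**Figure D4:**
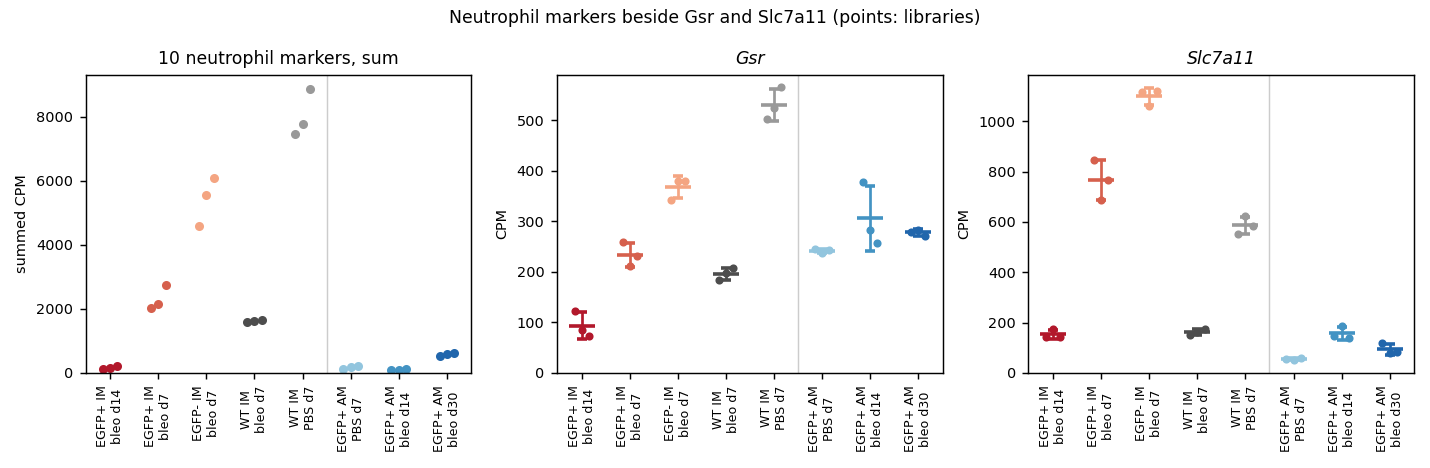
Summed CPM of 10 neutrophil markers, and CPM of Gsr and of Slc7a11 (linear y axes from 0), in the 8 groups along the x axis (interstitial gate left of the grey line). Points are libraries, and bars and whiskers in the Gsr and Slc7a11 panels are mean and SD (n = 3). In the interstitial gate the groups take the same order for the neutrophil sum and for Gsr, with wild-type PBS cells highest, and Slc7a11 is highest in EGFP- day 7 cells. The dendritic, B and red cell sums had nearly the order of Gsr there too. No test was made of these orders.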

How the data were processed

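Poly(A) RNA of 24 sorted macrophage libraries was measured by RNA-seq. Per the submitters' processing notes, the authors used FastQC 0.11.5, Trimmomatic 0.38, HISAT2 2.1.0, SAMtools and featureCounts 1.6.3 with GRCm38. The annotation release and the use of strand are not given in the sources used here. The values are read counts per gene as the authors deposited them, in 2 tables of 49585 genes (15 libraries) and 55487 genes (9 libraries). The 49022 genes in both tables were used and hold at least 99.486% of each library's counts. Of these, 90.8% have the same coordinates in both tables. There were 3 further columns of counts that matched no sample and were not used. The 10 members, the gene lists and the rules for naming genes were chosen with earlier results of these data known.

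Each comparison was fitted with edgeR 4.0.16 (R 4.3.3, limma 3.58.1), using the quasi-likelihood test with TMM scaling, edgeR's low-count filter and the group as the only term. The Benjamini-Hochberg adjustment ran over all genes tested, and a gene was called at an adjusted p under 0.05. The SE of a log2 fold change is its size over the root of the F statistic. All p-values are two-sided. Alternatives were DESeq2 1.42.0, its size factors within edgeR, no low-count filter, all 24 libraries or only the 2 groups compared in a fit, genes with the same coordinates, the replicate number as a block, and each library left out in turn. The fits were tested on simulated counts first. Levels are CPM of the total count, and log2 levels for correlations had 1 added. Within a group, libraries differed by more than sampling noise in each pair, so none was counted as a duplicate. Same-numbered libraries were taken as paired where each of their correlations was over 0.1. This held for EGFP+ day 14 IMs against AMs (0.25, 0.16 and 0.20), where the block is given. The correlations were all positive but lower for AMs at day 14 against PBS (0.02 to 0.09) and for PBS IMs against AMs (0.03 to 0.06).

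The text names every member, and from each other list at most the 4 called genes with the smallest p in a comparison. Marker lists are given as summed CPM. The 5 genes most like the set were ranked among genes with a mean of at least 10 CPM and the same coordinates in both tables. Promoter windows came from RefSeq (GRCm38.p6) and exon lengths from GENCODE M21.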

Additional observations from a re-analysis of the deposited data

Results flagged for a closer look

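For 7 of the 10 members the effect of bleomycin differed between wild-type IMs at day 7 and EGFP+ AMs at day 14, each against PBS at day 7, by a test of the difference itself in one edgeR fit. Over all 16177 genes tested, 28% were called higher and 17.6% lower in this test. The comparison was chosen after results had been seen. The log2 effect in IMs minus that in AMs was -3.53 for Slc7a11, -3.08 for Nqo1, -1.97 for Gsr, -0.69 for Txnrd1 and -0.62 for Srxn1, all lower in IMs. It was 0.90 for Prdx1 and 0.44 for Gclm, both higher in IMs. Txnrd1 has another model in the table of the day 14 libraries. Gate, genotype, day and deposited table differ together here and cannot be told apart.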

How the results depend on the processing

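Settings that kept all libraries gave 719 log2 fold changes of members. Of these 688 kept their direction and side of the threshold, 10 lost and 16 gained the call, and 5 changed sign. Leaving out 1 library gave 720, of which 673 kept both, 22 lost and 9 gained the call, and 16 changed sign. Every change of sign was in a member not called in that comparison. For other named genes, 4395 of 4466 values kept both.

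With all libraries kept, the count of members called was within 1.5 times in each comparison except that of day 14 IMs with AMs. There it was 3, against 5 without the low-count filter and 6 with all 24 libraries in one fit. The genes called there were 2832, against 5906 with all 24 libraries. For EGFP+ reporter against wild-type IMs they were 5279, against 3220 with all 24. The cause was not tested.

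Without 1 library each, the members called ranged from 9 to 9 (genes 10362 to 10907) for bleomycin in wild-type IMs, 5 to 5 (3280 to 4221) for EGFP+ against EGFP- IMs, 4 to 9 (6579 to 8551) for EGFP+ IMs at day 14 against day 7 and 3 to 5 (1840 to 3326) for day 14 IMs against AMs. In AMs they ranged from 8 to 10 (6960 to 8277) at day 14 and 7 to 9 (5878 to 6608) at day 30 against PBS, and 7 to 8 (4589 to 5766) at day 30 against day 14. They ranged from 7 to 8 (12146 to 12594) for PBS IMs against AMs, 9 to 9 (4154 to 4834) and 8 to 9 (8144 to 8606) for EGFP+ and EGFP- reporter against wild-type IMs, and 7 to 7 (6753 to 7519) for the difference of bleomycin effects.

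The values that changed sign were Srxn1 in PBS IMs against AMs without the filter (-0.053), and Gclc in the difference of effects with DESeq2's size factors or test (-0.089 in both), all 24 libraries (-0.056) and genes with the same coordinates (-0.072). Without 1 library each, the ranges that crossed 0 were -0.15 to 0.41 for Akr1b8 with bleomycin in wild-type IMs, -0.0070 to 0.079 for Srxn1 in EGFP+ against EGFP- IMs, and -0.13 to 0.25 for Nfe2l2 and -0.083 to 0.27 for Srxn1 in EGFP+ IMs at day 14 against day 7. They were -0.030 to 0.077 for Gclm in AMs at day 30 against day 14, -0.023 to 0.21 for Slc7a11 in day 14 IMs against AMs and -0.0097 to 0.031 for Srxn1 in PBS IMs against AMs. They were -0.11 to 0.019 for Prdx1 in EGFP- reporter against wild-type IMs and -0.12 to 0.086 for Gclc in the difference of effects.

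With the replicate number as a block day 14 IMs against AMs had 4 members and 3648 genes called. For the other comparisons the sources do not say whether same-numbered libraries came from the same mice. With the block each count of members called there was the same as without it (9 for bleomycin in wild-type IMs, 6 for EGFP+ against EGFP- IMs).

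Without the low-count filter the median log2 fold change of all genes was -0.23 for day 14 AMs against PBS, -0.13 for EGFP+ IMs at day 14 against day 7, -0.10 for bleomycin in wild-type IMs and 0.13 for PBS IMs against AMs. The order of groups in levels used total counts. With TMM factors it changed for each member except Prdx1 and Akr1b8. In EGFP+ day 14 IMs the place of Gclc among the 8 groups was then 3 and not 6, that of Nfe2l2 3 and not 5, that of Slc7a11 4 and not 6 and that of Srxn1 1 and not 3. Txnrd1 and Gclc in PBS AMs, and Slc7a11 in wild-type bleomycin IMs, had place 6 and not 4. Nqo1 and Akr1b8 have the fewest reads, down to 10 and 18 in a library, which limits their precision.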
